A study of Homo sapiens with 3 samples.

Results

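The genes described here encode the mitochondrial ribosomal proteins, taken as every protein-coding gene whose GENCODE 29 symbol is MRPL or MRPS followed by digits and an optional letter. GENCODE 29 holds 78 such symbols, and 76 of them, 48 MRPL and 28 MRPS genes, were found by gene ID among the 48162 genes of the deposited tables. MRPL45 and MRPS21 are not analysed here. The samples were 3 cultures of the human breast cancer line MDA-MB-231, which is triple-negative, sequenced as 1 library each: a FoxO3 depletion, a co-depletion of Geminin and FoxO3, and a control. All 3 groups, the control included, were infected with lentivirus for 24 h and harvested 72 h after the change of medium, and 3 µg of total RNA went into each library. The sources used here do not give the depleting sequences or the control vector. No group has replicates, so every difference below is between 2 libraries and is described by its size and by its counting error alone.

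The mitochondrial ribosome translates the few mRNAs encoded in mitochondrial DNA, all of them for subunits of the respiratory chain and the ATP synthase. Its rRNAs come from the mitochondrial genome, while all of its proteins are encoded in the nucleus, made in the cytosol and imported. The small subunit reads the mRNA, the large subunit holds the peptidyl transferase centre and the exit tunnel, and compared with bacterial ribosomes the particle has lost rRNA and gained proteins that bacteria lack. Names of the MRPS and MRPL series follow the subunit, with exceptions: MRPS18A and MRPS30 sit in the large subunit in structures of the human particle, and MRPS36 has since been assigned to the 2-oxoglutarate dehydrogenase complex.

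Values are FPKM (fragment counts divided by transcript length and library size), so levels of different genes are compared per length. Whole reads recovered from the FPKM steps put the totals at 10760613 reads in the FoxO3-depleted library, 12267332 in the co-depleted library and 14507410 in the control. FOXO3, the targeted gene of both depletions, was at 2.79 FPKM in the FoxO3 depletion, 2.94 in the co-depletion and 12.2 in the control, and GMNN, which encodes Geminin, was at 112.2, 37.0 and 112.3 in the same order. Of 6 mesenchymal markers of this line, VIM was at 607, 574 and 593 FPKM, CD44 at 935, 904 and 631, AXL at 482, 480 and 534 and FN1 at 102, 123 and 116 in that order. ZEB1, a repressor of epithelial genes, was lower in both depleted libraries, at 11.5, 11.2 and 31.3 FPKM, and SPARC was near 1 FPKM in each library. Of the epithelial or luminal markers, ERBB2 (41.6, 46.8 and 38.0 FPKM), GATA3 (12.1, 12.6 and 8.78) and EPCAM (9.8, 8.95 and 13.8) were expressed. The epithelial cadherin CDH1 was at 1.02, 0.58 and 0.42 FPKM, and ESR1, PGR and FOXA1 stayed under 0.12. Of 5 fibroblast markers, COL1A1 and PDGFRB were above 1 FPKM, and the summed level of the list was 40.5 FPKM in the FoxO3 depletion, 39.1 in the co-depletion and 20.0 in the control, with DCN at 0 in both depleted libraries. Of the leukocyte markers, CD14 was at 8.09, 8.59 and 6.76 FPKM in the same order, and CD3E was at 0 in each library. Of the endothelial markers, KDR was at 6.97, 5.75 and 5.44 FPKM and VWF at 0.1, 0.09 and 0.26. The summed level of 4 markers of the packaging line HEK293 was 0.26, 0.38 and 0.32 FPKM. The part of these markers in the values below was not tested.

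Nearly all mitochondrial ribosomal protein genes were expressed in all 3 libraries. A mean of at least 1 FPKM over the libraries, the minimum used for the analysis, was reached by 75 of the 76 genes. The exception was MRPL30, a large subunit protein, at 0.08 FPKM in the FoxO3 depletion and listed at 0 in the co-depletion and the control. A mean of at least 10 FPKM was reached by 69 genes and a mean of at least 100 FPKM by 7. The highest mean was that of MRPL14, a conserved protein of the face that meets the small subunit, at 184 FPKM in the FoxO3 depletion, 189 in the co-depletion and 156 in the control. MRPL37, which has no bacterial counterpart, came next by its mean, at 143.5, 136 and 110.3, and MRPL51 at 118, 131 and 132. MRPL17, a protein at the tunnel exit, stood at 121, 119 and 103, and MRPL3, a conserved core protein, at 111, 107 and 100.4.

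Among MRPS genes the highest mean level was that of MRPS27, a pentatricopeptide repeat protein of the small subunit, at 112 FPKM in the FoxO3 depletion, 95.7 in the co-depletion and 89.3 in the control. MRPS23 (96.9, 92.7 and 76.2), MRPS10 (83.8, 78.3 and 99.4), MRPS18B (75.3, 78.9 and 70.9) and MRPS34 (77.2, 80.4 and 63.8) came next. MRPS10 was lower in both depleted libraries than in the control, and the other 4 were higher in both. The median MRPS gene stood at 35.4 FPKM in the FoxO3 depletion, 35.8 in the co-depletion and 35.9 in the control, and the median MRPL gene at 50.5, 50.1 and 45.8. With MRPS18A and MRPS30 counted with the large subunit, where structures place them, the small subunit medians were 41.3, 42.6 and 37.2 FPKM. The large subunit medians were then 48.0, 48.4 and 45.7, so the gap between the subunits depends on where these genes are counted. MRPS36 was kept with the MRPS genes in both counts.

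**Figure D1:**
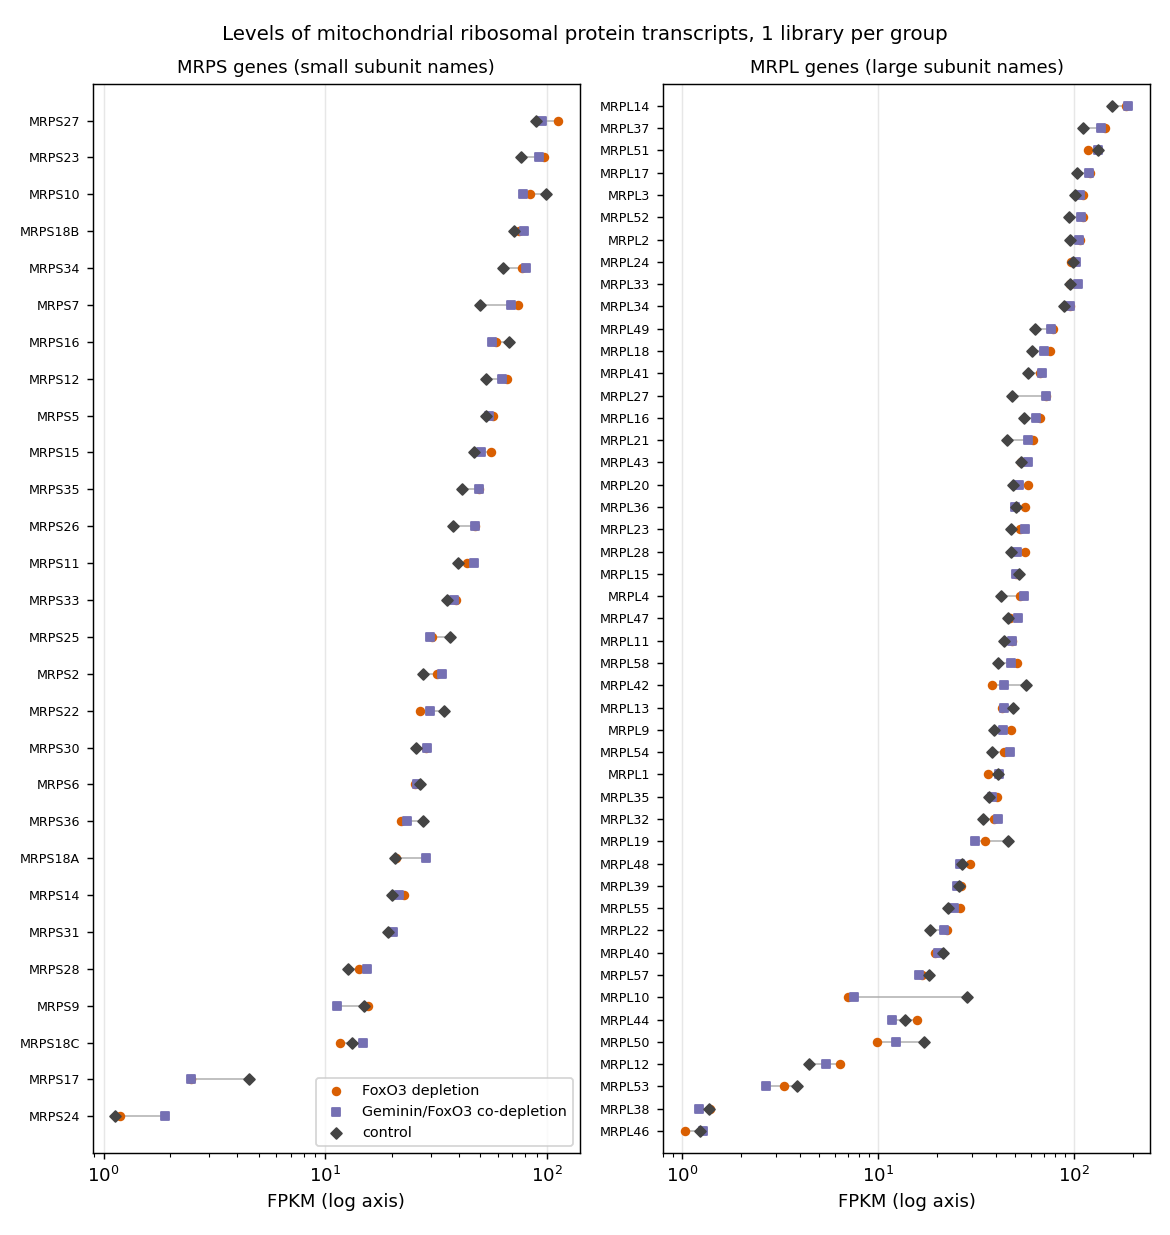
FPKM (log axis) of the 75 analysed genes in the FoxO3 depletion, the co-depletion and the control, 1 library each, with MRPS genes on the left and MRPL genes on the right, ordered by mean level. A grey line joins the lowest and highest library of a gene, and MRPL10 has the longest, from 7.05 and 7.5 FPKM in the depleted libraries to 28.3 in the control.

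A small group of genes stood far under the rest. MRPL12, which forms the flexible stalk that recruits translation factors and also binds the mitochondrial RNA polymerase, was at 6.42 FPKM in the FoxO3 depletion, 5.39 in the co-depletion and 4.43 in the control. MRPL53 was at 3.32, 2.66 and 3.86, MRPS17 at 2.47, 2.48 and 4.52, and MRPS24 at 1.19, 1.9 and 1.12. The central protuberance proteins MRPL38 and MRPL46 were at 1.39, 1.22 and 1.37 FPKM and at 1.03, 1.27 and 1.23. Among the 75 analysed genes these are the 6 with a mean under 10 FPKM. Each of them shares exonic sequence with another gene in GENCODE 29. The shared part of their exonic bases had a median of 34.1% (11.3% for MRPL46 to 68.2% for MRPL12), against a median of 0% (0% to 47.0%) for the 69 genes above 10 FPKM. Of the 42 genes with under 5% shared bases, 0 had a mean under 10 FPKM. High overlap also occurred at higher levels: MRPS18A shares 47.0% of its exonic bases and was at 20.9, 28.5 and 20.6 FPKM. MRPL30, which did not reach the minimum for the analysis, shares 19.5%. The sources used here do not say whether reads in shared exons were counted, so the levels of these genes are uncertain.

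**Figure D2:**
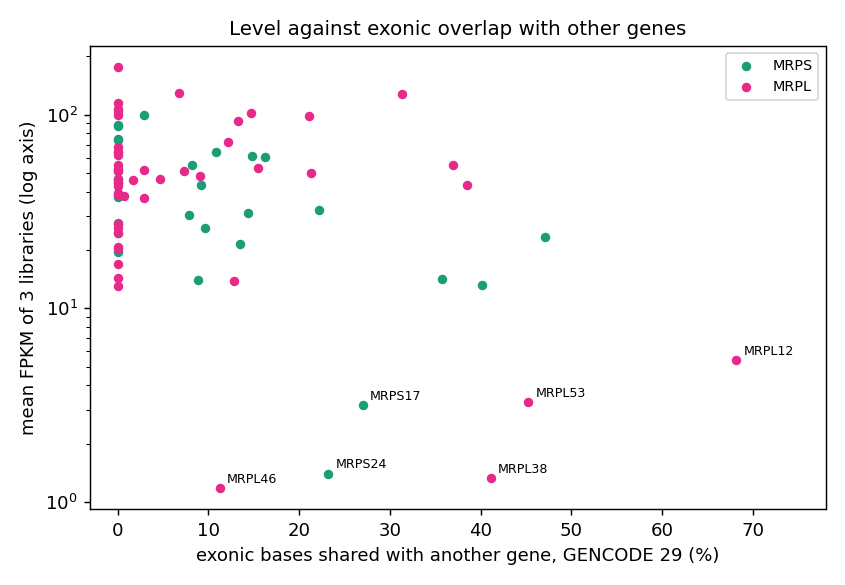
Mean FPKM over the 3 libraries (log axis) against the percentage of a gene's exonic bases that another GENCODE 29 gene also covers, for 75 genes. All 6 genes under 10 FPKM, which are named, lie at 11.3% or more, while genes above 10 FPKM reach up to 47.0%.

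MRPL10 was the member set furthest apart. MRPL10 (ENSG00000159111) encodes the large subunit protein that anchors the MRPL12 stalk to the ribosome. It was at 7.05 FPKM in the FoxO3 depletion, 7.5 in the co-depletion and 28.3 in the control, from 94, 114 and 509 recovered reads. Both depleted libraries were thus low and close to each other. In the FoxO3 depletion the level was 24.9% of control (exact 95% counting interval 19.8% to 31.1%). In the co-depletion it was 26.5% of control (21.4% to 32.5%). The co-depletion over FoxO3 depletion ratio was 1.06, with an interval of 0.80 to 1.41 that includes 1. On the log2 scale of (FPKM + 1) its ratios to the control were -1.86 and -1.79, the lowest of the 75 genes in both comparisons, and they ranked 17 from the lowest of 12649 genes in the FoxO3 depletion and 5 from the lowest in the co-depletion. MRPL10 had been singled out for its low ratio before, so these ranks are a description.

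The next lowest members were far from MRPL10, at -0.73 (MRPL50) in the FoxO3 depletion and -0.66 (MRPS17) in the co-depletion. Its transcripts have a GC content of 54.9%, and the log2 ratios after adjustment for GC content were -1.92 and -1.84. Its exons overlap no other gene in GENCODE 29. Of the genes that neighbour MRPL10, SCRN2 and OSBPL7 were also lower in the depleted libraries, by less. SCRN2 was at 15.2 FPKM in the FoxO3 depletion, 18.4 in the co-depletion and 23.5 in the control, and OSBPL7 at 2.66, 3.46 and 5.44. On the log2 scale of (FPKM + 1) both passed 1.5-fold in the FoxO3 depletion, with ratios of -0.59 and -0.82. Neither passed in the co-depletion, with -0.34 and -0.53. By FPKM without the added 1, OSBPL7 did pass there, at 63.6% of control (95% counting interval 48.3% to 83.1%). Of all genes 16.7% were lower by 1.5-fold in the FoxO3 depletion, with 12.3% in the co-depletion. LRRC46, also a neighbour, was under 1 FPKM in each library. It was at 27.0% of control (5.0% to 95.3%) in the FoxO3 depletion and 94.6% (40.4% to 216.5%) in the co-depletion.

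The partners of MRPL10 in the stalk and its base had other values. MRPL11, the conserved protein at the base of the stalk, was at 48.0 FPKM in the FoxO3 depletion, 48.4 in the co-depletion and 43.8 in the control. MRPL54 stood at 43.9, 47.0 and 38.0. For MRPL12 the ratio to control was 1.45 (95% counting interval 1.02 to 2.06) in the FoxO3 depletion and 1.22 (0.86 to 1.74) in the co-depletion. For MRPL53 the intervals included 1 in both comparisons. So of 5 stalk genes, MRPL10 alone passed 1.5-fold, the size rule used below, and 3 of the other 4 were above 0 on the log2 scale in both comparisons with the control. Of all genes 16.7% and 12.3% were lower by 1.5-fold, and 42.9% and 43.7% above 0, in the FoxO3 depletion and the co-depletion.

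**Figure D3:**
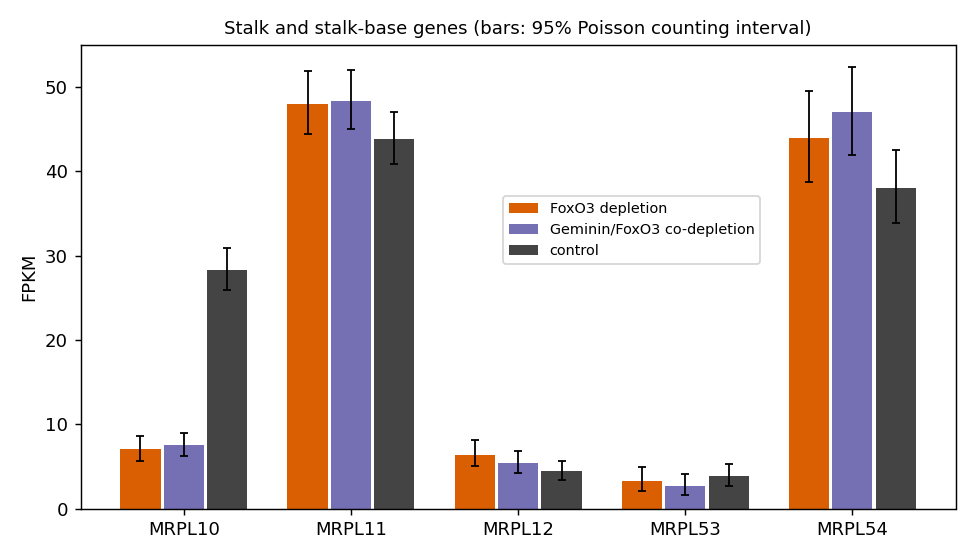
FPKM of the 5 stalk and stalk-base genes in the FoxO3 depletion, the co-depletion and the control. Bars start at 0 and show 1 library each, and black lines are 95% Poisson counting intervals from the recovered reads. MRPL10 is at 7.05 and 7.5 FPKM in the depleted libraries and 28.3 in the control, while MRPL11 and MRPL54 lie between 38.0 and 48.4 in every library.

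The first comparison asks how the set differs when FoxO3 is depleted. Most mitochondrial ribosomal protein genes were slightly higher in the FoxO3 depletion than in the control. Of 75 genes 53 had a log2 ratio above 0, beside 42.9% of all 12649 genes analysed. The median log2 ratio was 0.14 for the 75 genes, 0.11 for MRPS and 0.15 for MRPL genes, beside -0.07 for all genes. At 1.5-fold, 0 of 75 genes were higher, where 4% of all genes were, and 3 were lower, where 16.7% of all genes were. The 3 were MRPL10, MRPL50 and MRPS17. At 2-fold MRPL10 alone was lower, beside 5.23% of all genes. The counting interval of the FPKM ratio lay above 1 for 28 of the 75 genes, beside 24.4% of all genes, and below 1 for 12, beside 34.6%. For the other 35 a difference was not detectable at this depth.

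The highest ratios in the FoxO3 depletion belonged to MRPS7 and MRPL27. MRPS7, a conserved protein of the small subunit head, was at 74.2 FPKM against 49.9 in the control, a ratio of 1.49 (1.35 to 1.64). MRPL27, whose bacterial counterpart reaches towards the peptidyl transferase centre, was at 71.6 against 48.2, also a ratio of 1.49 (1.34 to 1.66). Further MRPL genes with high ratios were MRPL21 (61.9 against 45.6 FPKM), MRPL37 (143.5 against 110.3) and MRPL4 (53.1 against 42.1). On the MRPS side they were MRPS23 (96.9 against 76.2), MRPS27 (112 against 89.3), MRPS26 (47.5 against 37.9) and MRPS12 (66.1 against 53.3), the last a conserved protein next to the decoding centre.

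At the low end, MRPL50 was at 9.89 FPKM against 17.0, a ratio of 0.58 (0.50 to 0.68), and MRPS17, a conserved rRNA-binding protein, at 2.47 against 4.52, a ratio of 0.55 (0.36 to 0.82). MRPL42 (38.0 against 56.9 FPKM), MRPL19 (34.9 against 45.7), MRPS22 (26.9 against 34.2), MRPS36 (22.1 against 27.6) and MRPS25 (30.5 against 36.4) followed, with log2 ratios of -0.57, -0.38, -0.34, -0.31 and -0.25. MRPL13, at 42.7 FPKM against 48.5, was the fifth lowest MRPL gene, with a log2 ratio of -0.18. MRPL50 and MRPL42 have the most AT-rich transcripts of the set, at 34.96% and 37.5% GC. After GC adjustment their log2 ratios were 0.07 and 0.19, so the direction of both turned, as did that of MRPS36, to 0.19, and of MRPL13, to 0.53. MRPS17, at 49.2% GC, stayed at -0.69.

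The second comparison, of the Geminin and FoxO3 co-depletion with the same control library, shares that library with the first, so the lists are not separate evidence. Of 75 genes 52 were above 0, beside 43.7% of all genes, with a median log2 ratio of 0.11 (0.13 for MRPS and 0.11 for MRPL genes) beside -0.06 for all genes. At 1.5-fold 0 were higher, beside 4.02% of all genes, and MRPL10 and MRPS17 were lower, beside 12.3%. At 2-fold it was MRPL10 alone, beside 2.25%. The counting interval lay above 1 for 29 genes, beside 24.3% of all genes, and below 1 for 10, beside 32.6%.

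On the log2 scale of (FPKM + 1) MRPL27 had the highest ratio in the co-depletion, at 71.9 FPKM against 48.2 (1.49, 1.35 to 1.66), followed by MRPS7 at 68.7 against 49.9 (1.38, 1.25 to 1.52) and MRPS18A at 28.5 against 20.6 (1.38, 1.17 to 1.64). MRPS24, at 1.9 against 1.12 FPKM, had a higher FPKM ratio, 1.69, with a wide interval of 0.81 to 3.62. MRPL4 (55.3 against 42.1), MRPL21 (57.9 against 45.6), MRPS34 (80.4 against 63.8) and MRPS26 (47.5 against 37.9) were also higher, with intervals above 1. MRPS17 was at 2.48 against 4.52 FPKM (0.55, 0.37 to 0.81) and MRPL19 at 31.1 against 45.7 (0.68, 0.60 to 0.77). MRPL50 was at 12.3 against 17.0, MRPS9 at 11.3 against 15.0 and MRPS10 at 78.3 against 99.4, each with an interval under 1. MRPS25 (29.8 against 36.4), MRPS16 (56.7 against 67.9) and MRPL42 (43.6 against 56.9) were lower as well. After GC adjustment the log2 ratio of MRPL50 turned to 0.15, against -0.44 without it, and that of MRPL42 to 0.19, against -0.38.

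**Figure D4:**
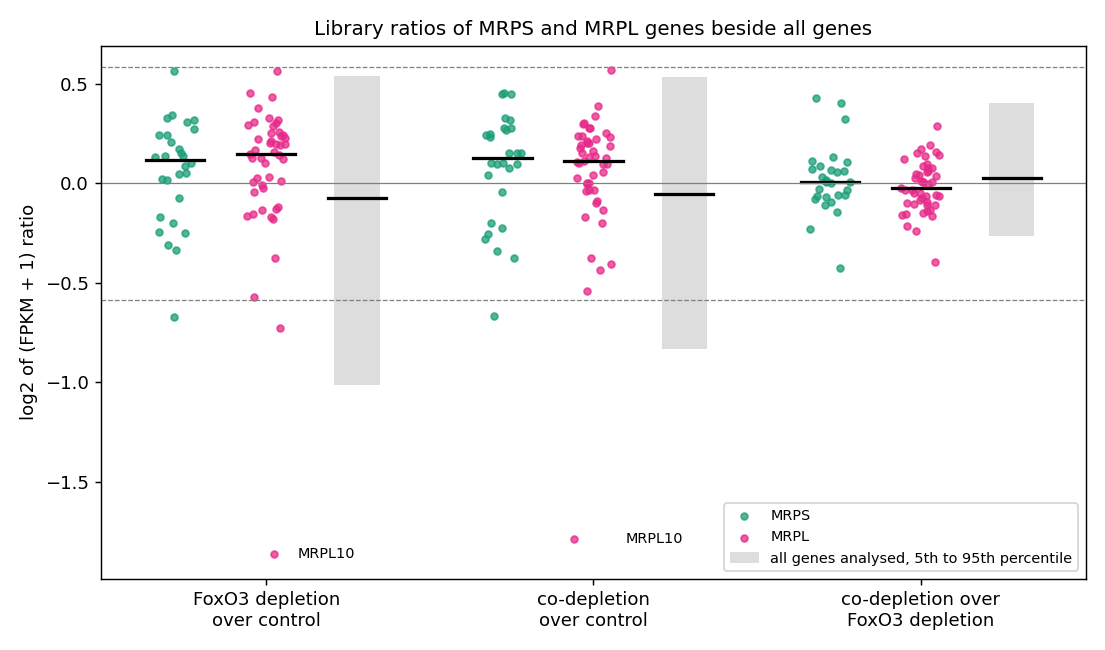
Log2 ratio of (FPKM + 1) between libraries for MRPS and MRPL genes in the 3 comparisons, 1 point per gene. Black lines are medians, grey bars span the 5th to 95th percentile of all 12649 genes, and dashed lines mark 1.5-fold. In both comparisons with the control MRPL10 lies alone, at -1.86 and -1.79, under a set whose subunit medians are between 0.11 and 0.15.

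The third comparison sets the co-depletion against the FoxO3 depletion, and so follows the addition of Geminin depletion. Of the 75 genes 38 had a log2 ratio above 0, beside 56.4% of all genes, and the median was 0.00 beside 0.03. At 1.5-fold 0 genes were higher, beside 1.35% of all genes, and 0 lower, beside 0.617%. At 2-fold 0 were lower, beside 0.0632%, and after GC adjustment 0 were higher by 1.5-fold, beside 1.07%. The counting interval lay above 1 for 4 genes, beside 13.7% of all genes, and below 1 for 5, beside 9%. The 4 were MRPS18A, at 28.5 FPKM against 20.9 (ratio 1.36, 1.14 to 1.64), MRPL50 at 12.3 against 9.89 (1.24, 1.05 to 1.48), MRPL42 at 43.6 against 38.0 and MRPL51 at 131 against 118.

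Below 1 lay MRPS9, a conserved small subunit protein whose C-terminus reaches the decoding centre in bacteria, at 11.3 FPKM against 15.6 (0.73, 0.58 to 0.91). MRPL44, a protein with an RNase III fold near the tunnel exit, was at 11.8 against 15.8 (0.75, 0.63 to 0.88), and MRPS27 at 95.7 against 112 (0.85, 0.79 to 0.92). MRPS10 and MRPS15 were the others, with ratios of 0.94 and 0.90. The log2 ratios of the 75 genes had an SD of 0.147 in this comparison, against 0.338 for the FoxO3 depletion over control and 0.323 for the co-depletion over control. All genes had the same order, with SDs of 0.214, 0.478 and 0.422. Without MRPL10 both SDs of the set against the control were smaller, at 0.255 and 0.243. The other extreme members had counting intervals that included 1: MRPS7, MRPL53, MRPL12, MRPL19 and MRPL36 at the low end, and MRPS28, MRPS22, MRPS18C, MRPS24, MRPL46 and MRPL1 at the high end.

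By region of the ribosome, the genes of the tunnel exit, where the new chain leaves towards the inner membrane, numbered 7 of 8 in the tables. Of these, 6 were above 0 in the FoxO3 depletion (median 0.14) and 5 in the co-depletion (median 0.18), beside 42.9% and 43.7% of all genes. MRPL22 was at 22.5 FPKM in the FoxO3 depletion, 21.6 in the co-depletion and 18.3 in the control, and MRPL47 at 46.8, 51.8 and 45.8. MRPL23 was at 52.8, 55.7 and 47.7 FPKM, MRPL24 at 96.5, 102 and 98.2 and MRPL39 at 26.4, 25.2 and 25.9. The 6 genes of the central protuberance had medians of 0.07 and -0.00, led by MRPL18 at 74.96, 69.8 and 60.6 FPKM and MRPL58, a peptidyl-tRNA hydrolase that also rescues stalled ribosomes, at 51.1, 47.4 and 40.8. MRPL40 and MRPL48 differed from the control by less than their counting error in both comparisons. Neither region held a gene past 1.5-fold, where 4% of all genes were higher and 16.7% lower in the FoxO3 depletion, and 4.02% higher and 12.3% lower in the co-depletion.

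The 46 analysed genes with a bacterial homologue and the 29 without had medians of 0.15 and 0.12 in the FoxO3 depletion and of 0.14 and 0.08 in the co-depletion. The 3 paralogues of bacterial protein S18, which occupy different ribosomal sites, were not alike. MRPS18A was higher in the co-depletion than in the other libraries, MRPS18B stood at 75.3 FPKM in the FoxO3 depletion, 78.9 in the co-depletion and 70.9 in the control, and MRPS18C was at 11.7, 14.8 and 13.3, with counting intervals that included 1 in all 3 comparisons. MRPS18A and MRPS18C share 47.0% and 40.2% of their exonic bases with other genes, so their reads are uncertain to that extent.

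Transcript GC content moved with these ratios. Across the 75 genes, which are not independent and share 3 libraries, Spearman's rho between log2 ratio and GC content was 0.42 for the FoxO3 depletion over control. For the co-depletion over control it was 0.43, beside 0.41 and 0.44 across all genes. Genes of like GC content had lower medians. The 25 members poorest in GC (34.96% to 44.7%) had a median of 0.02 in the FoxO3 depletion, with 0.04 in the co-depletion, where all genes of that range had -0.39 and -0.32. The 25 richest (53.8% to 71.9%) had 0.20 and 0.23, where all genes had 0.05 and 0.08. After GC adjustment 59 of 75 were above 0 in each comparison with the control, beside 50% and 49.8% of all genes, with medians of 0.19 and 0.16. The ratios moved with mean FPKM too. Its rho was 0.41 (FoxO3 depletion over control) and 0.35 (co-depletion over control), beside 0.27 and 0.23 across all genes. The part of expression level in the contrasts with all genes was not tested.

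At 1.5-fold after GC adjustment, 5 genes were higher in the FoxO3 depletion, beside 5.78% of all genes, and 5 in the co-depletion, beside 4.51%. MRPS30 had adjusted values of 0.89 and 0.71, from 28.4, 28.7 and 25.7 FPKM in the FoxO3 depletion, the co-depletion and the control. MRPL32, which in yeast and mouse is matured by the m-AAA protease, had 0.78 and 0.71, from 39.1, 40.9 and 34.2 FPKM. MRPL22 had 0.79 and 0.60, and MRPL47 0.65 and 0.66. MRPS31 passed in the FoxO3 depletion (0.67) and MRPS18C in the co-depletion (0.66). These are AT-rich transcripts with unadjusted log2 ratios to the control from -0.17 (MRPS18C) to 0.29 (MRPL22), where AT-rich genes in general lay lower. For MRPL22 and MRPL32 the counting intervals lay above 1 in both comparisons with the control. The genes lower by the same rule were MRPL10 and MRPS17 in both comparisons, beside 8.45% of all genes in the FoxO3 depletion, with 5.67% in the co-depletion.

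**Figure D5:**
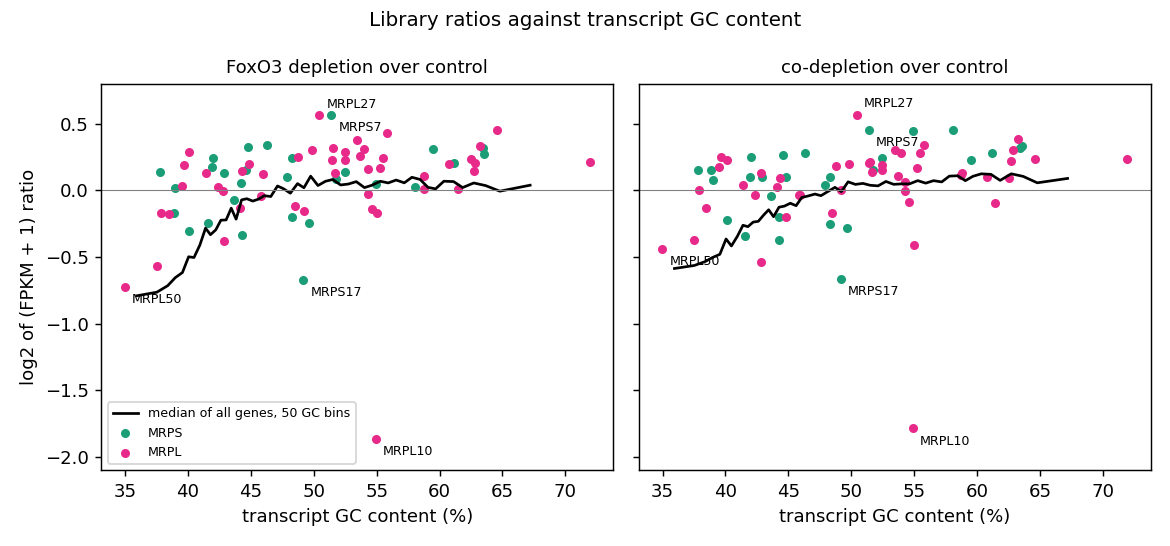
Log2 ratio of (FPKM + 1) to the control against transcript GC content (%) for MRPS and MRPL genes, in the FoxO3 depletion and the co-depletion. The black line is the median of all genes in 50 bins of GC content. It drops at low GC, where MRPL50 lies near it at 34.96% GC, and MRPL10 lies far under it at 54.9% GC.

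Summed over all 76 genes, the level was 3847 FPKM in the FoxO3 depletion, 3821 in the co-depletion and 3527 in the control, which is 0.535%, 0.531% and 0.503% of all FPKM. The cytosolic ribosomal proteins, as the most similar set, had medians of 0.26 and 0.24 over the control for 83 analysed genes, with SDs of 0.193 and 0.173. The difference between both kinds of ribosome was not tested. Of 5 mitochondrial ribosomal proteins known by other symbols, DAP3, a GTP-binding protein of the small subunit also known from apoptosis, was at 205 FPKM in the FoxO3 depletion, 191 in the co-depletion and 138 in the control, with log2 ratios of 0.56 and 0.46. GADD45GIP1 was at 197, 185 and 151, AURKAIP1 at 154, 155 and 131, CHCHD1 at 45.0, 39.5 and 40.1 and PTCD3 at 115, 113 and 125. Their median was 0.24 in both comparisons, with 0 of 5 past 1.5-fold. Of all genes, 4% were higher and 16.7% lower by 1.5-fold in the FoxO3 depletion, with 4.02% and 12.3% in the co-depletion.

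Genes that build and serve the mitochondrial ribosome gave medians near 0. Of 23 analysed assembly factors, 0 were higher and 4 lower at 1.5-fold in each comparison with the control, with medians of -0.00 and -0.03. Of all genes 16.7% were lower in the FoxO3 depletion, with 12.3% in the co-depletion, so the shares of these lists and of those that follow are to be read against that background. The 4 were the assembly GTPase GTPBP10 (6.0, 6.67 and 11.7 FPKM in the FoxO3 depletion, the co-depletion and the control), the 12S rRNA methyltransferase METTL15 (5.61, 6.67 and 10.9), the 16S rRNA-binding protein FASTKD2 (7.06, 7.4 and 12.9) and the 12S rRNA dimethyltransferase TFB1M (6.66, 6.6 and 10.8). After GC adjustment 0 of 23 passed 1.5-fold, and TFB1M stood at -0.56 and -0.51. Of all genes, 8.45% were lower and 5.78% higher by 1.5-fold after GC adjustment in the FoxO3 depletion. In the co-depletion the shares were 5.67% and 4.51%. Of 16 translation factors, LRPPRC, which stabilises mitochondrial mRNAs, was lower in both (67.2, 73.4 and 115 FPKM) and the release factor MTRF1 in the co-depletion (3.32 against 5.78). After GC adjustment 0 of 16 were lower at 1.5-fold, beside the same 8.45% and 5.67% of all genes. LRPPRC then stood at -0.44 and -0.35, and MTRF1 at -0.28 in the co-depletion. The elongation factor TUFM was at 197, 199 and 160 FPKM.

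Of 10 genes of mitochondrial transcription and DNA maintenance, the termination factor MTERF1 and the elongation factor TEFM were lower at 1.5-fold in the FoxO3 depletion, at 2.38 against 4.66 and 10.6 against 17.0 FPKM, and 0 in the co-depletion, beside the same 16.7% and 12.3% of all genes. After GC adjustment 0 of these passed. The 13 mRNAs encoded in mitochondrial DNA, the templates of the ribosome, had medians of -0.26 for the FoxO3 depletion over control and -0.09 for the co-depletion over control. Of the 13, 0 and 2 were above 0 in these comparisons, beside 42.9% and 43.7% of all genes. After GC adjustment the medians were -0.16 and 0.01, with 3 and 8 of 13 above 0, beside 50% and 49.8% of all genes. The direction of the median thus turned in the co-depletion. Set against the FoxO3 depletion, all 13 were above 0 in the co-depletion, with a median of 0.12, beside 56.4% of all genes above 0. Past 1.5-fold were 0 of 13 in this comparison, beside 1.35% of all genes higher and 0.617% lower. The mitochondrial rRNAs are not analysed here.

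Promoter sequences of RefSeq (GRCh38.p14), taken as the 250 bases before each gene's start, were matched by symbol for 66 of the 75 genes. MRPL2, MRPL10, MRPL13, MRPL15, MRPL21, MRPL23, MRPL35, MRPS28 and MRPS36 had no entry. Words were searched on both strands. The ETS word CCGGAAGT was in 9 of 66 promoters (13.6%), beside 7.59% of promoters of analysed genes and 3.39% of all promoters. The NRF1 consensus word was in 6 (9.09%), beside 10.9% of promoters of analysed genes, and the YY1 word AAGATGGCG in 3 (4.55%), beside 1.15%. GGGCGG, the core word of SP1, was in 37 (56.1%), beside 68.6%. The forkhead word GTAAACA was in 0 of 66, beside 1.88%, which says only that these letters are not in these windows. The 9 genes with the ETS word had medians of 0.03 for the FoxO3 depletion over control and 0.09 for the co-depletion over control, and the 57 without it 0.14 and 0.13.

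The upstream windows of the genes with the highest ratios in the first comparison, MRPL27 and MRPS7, and of MRPS17, lower by 1.5-fold in both comparisons with the control, are given 5′ to 3′ in the direction of the gene, as examples with and without the ETS word. Capitals mark the ETS, NRF1 and YY1 words. MRPL27 (chr17:50373185-50373434, minus strand) holds the ETS word at 2 places, and MRPS7 (chr17:75261629-75261878, plus strand) and MRPS17 (chr7:55951627-55951876, plus strand) hold none of the 3 words.
MRPL27: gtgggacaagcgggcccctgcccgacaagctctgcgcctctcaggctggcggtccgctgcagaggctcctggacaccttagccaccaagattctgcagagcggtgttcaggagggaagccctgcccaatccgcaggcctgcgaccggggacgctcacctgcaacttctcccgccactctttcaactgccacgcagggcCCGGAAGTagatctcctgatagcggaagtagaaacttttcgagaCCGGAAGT
MRPS7: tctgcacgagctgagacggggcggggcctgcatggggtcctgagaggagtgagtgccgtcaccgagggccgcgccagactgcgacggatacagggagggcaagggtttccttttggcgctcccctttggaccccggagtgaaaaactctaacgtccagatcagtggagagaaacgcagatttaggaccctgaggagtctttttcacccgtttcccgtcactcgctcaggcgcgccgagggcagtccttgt
MRPS17: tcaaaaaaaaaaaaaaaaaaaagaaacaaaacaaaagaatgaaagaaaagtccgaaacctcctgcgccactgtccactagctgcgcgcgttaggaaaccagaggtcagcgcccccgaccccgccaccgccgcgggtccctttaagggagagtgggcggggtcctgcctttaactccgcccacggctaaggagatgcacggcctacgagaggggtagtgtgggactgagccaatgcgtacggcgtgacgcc
On the log2 scale of (FPKM + 1) MRPL27 had the highest or the second highest ratio of the set to the control in both depleted libraries. MRPS7, whose window holds none of the 3 words, held the other of these ranks each time. MRPS17 was the only member beside MRPL10 lower by 1.5-fold after GC adjustment in both comparisons with the control. Its values rest on 34, 39 and 84 recovered reads in the FoxO3 depletion, the co-depletion and the control. The part of the words in these ratios was not tested.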

How the data were processed

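RNA was sequenced from 3 MDA-MB-231 cultures, 1 library per group, with groups taken from the sample titles and the series' design text. The authors deposited FPKM per Ensembl gene for each library, and TopHat2 2.0.9 is named in the submitters' processing notes. Counter, genome build, annotation and strandedness were not given in the sources used here. Gene names, GC content and exons came from GENCODE 29, which matched 45342 of 48162 gene IDs.

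FPKM values are whole reads times a step. With library totals from single-transcript genes, whole reads were found within the rounding of the files for 99.99% of the 20591 genes detected in 2 or more libraries, while 1 of 500 random triples passed. They were scaled up where the implied length matched the mean GENCODE transcript length, as for 59 of 75 members. Elsewhere they were multiplied by the smallest tried factor that made the implied length a whole number of bases, where one was found. Unmatched genes may have recovered reads that are a fraction of the true ones. Exact 95% Clopper-Pearson intervals of FPKM ratios cover counting error only.

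Ratios are differences of log2(FPKM + 1) between libraries, a scale that shrinks the ratios of low genes, over 12649 named genes with a mean of at least 1 FPKM. No p-value was computed. The size rule was 1.5-fold. GC adjustment subtracted the running median over 50 bins of transcript GC content. Scripts were tested on simulated data. The members and gene lists were chosen with earlier results of these data known. The genes named are MRPL10, members past 1.5-fold, the 5 highest and 5 lowest ratios and levels of each subunit, the regional lists, the MRPS18 paralogues and list members past 1.5-fold. Members named for their GC-adjusted ratios, and further genes of the other lists, were chosen after their values were seen. Python 3.11.15, pandas 2.3.3, scipy 1.17.1 and matplotlib 3.10.9 were used.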

Additional observations from a re-analysis of the deposited data

How the results depend on the processing

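The counts, subunit medians and MRPL10 ratios were recomputed under the alternatives that apply to each, 10 in all, and 120 of 132 values stayed within their counting or rank interval or within 1.5 times the count. Over these settings MRPL10 lay between -1.99 and -1.79 in the FoxO3 depletion over control and between -1.9 and -1.73 in the co-depletion over control. Members higher by 1.5-fold, 0 as reported, numbered 2 (FoxO3 depletion) and 1 (co-depletion) after rescaling by the median ratio of genes, 5 and 5 after GC adjustment, and 5 and 4 after GC and length adjustment. With a pseudocount of 0.1, 1 was higher in the co-depletion over control and 1 in the co-depletion over the FoxO3 depletion. At 2-fold 1 member was lower in either comparison with the control, and with a mean of at least 5 FPKM, which leaves MRPS17 out, 1 was lower in the co-depletion. Rescaling by the median ratio put the MRPL median of the FoxO3 depletion at 0.23. MRPL50 over control in the FoxO3 depletion reversed to 0.07 after GC adjustment and 0.10 after GC and length adjustment. No paired analysis was possible because each group holds 1 library. The cause of these shifts was not tested. Depth limits the low members most, with 11 recovered reads in the lowest.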
